A study of Mus musculus with 6 samples.

Results

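Heterogeneous nuclear ribonucleoproteins (hnRNPs) are RNA-binding proteins that coat pre-mRNA in the nucleus and steer the choice of splice sites, often by opposing the SR proteins. The genes described here are 33 of the 21307 rows of the deposited table: 20 hnRNP genes, and Ptbp1, Ptbp2, Syncrip, Khsrp, Pcbp1, Pcbp2, Mbnl1, Mbnl2, Celf1, Celf2, Rbm39, Rbm5 and Rbm25. They were listed by name from these protein families, with earlier results of these data known, and every listed name had a row. Many of these proteins also act on mRNA export, decay and translation. In human cells MYC is known to activate transcription of PTBP1, HNRNPA1 and HNRNPA2B1, and PRMT5, an arginine methyltransferase, is known to methylate Sm proteins of the spliceosome and hnRNP A1.

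The study sequenced mRNA of bone marrow B cells from pre-tumoral mice of a mixed C57BL/6 x 129S1/SvlmJ background, 6 to 8 weeks old, grown with interleukin 7 at 5 ng/ul. Both conditions carried the Eµ-myc transgene, which drives MYC from an immunoglobulin enhancer, and Prmt5F/F alleles with CreER, a Cre recombinase that 4-hydroxytamoxifen (4-OHT) activates. The 4-OHT condition (3 libraries, 50 nM for 24 h, then 5 days in fresh medium) had Prmt5 deleted, and the ethanol condition (3 libraries) received the solvent on the same schedule. The sample titles (PT for 4-OHT, WT for ethanol) and the series' design text name another contrast, of pre-tumoral with wild-type mice, but the characteristics give all 6 libraries the same genotype, and the table names its conditions oht and etoh. The promoter that drives CreER and whether libraries came from separate mice are not given in the sources used here.

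The table holds 1 FPKM value per gene and condition (sequenced fragments scaled by the authors to transcript length and library size). There is therefore no replicate error, no test, and no known read depth, and each difference below is one of size. A ratio here divides FPKM + 1 of 4-OHT by FPKM + 1 of ethanol and is given as log2, so that negative values are lower in 4-OHT, and folds are on the same scale. The comparison covers the 10856 rows that average 1 FPKM or more and exceed 0 in both conditions, and all 33 genes passed. Prmt5 stood at 5.71 FPKM in 4-OHT and 41.6 FPKM in ethanol, and Myc at 213 FPKM in 4-OHT and 402 FPKM in ethanol.

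Markers of B cells and of other bone marrow cells were both present, at levels that differed between conditions. All 10 B cell markers were lower in 4-OHT, against 55.1% of all compared rows, and 8 were at least 1.5-fold lower (80%, against 12.8%). Among them Rag1 was near equal, at 28.7 FPKM in 4-OHT and 29.3 FPKM in ethanol. The median log2 ratio of the 10 markers was -0.998, and their summed level was 860 FPKM in 4-OHT and 1802 FPKM in ethanol. Every compared marker of other bone marrow cells was at least 1.5-fold higher, against 19.5% of compared rows. The 8 neutrophil markers summed to 3441 FPKM in 4-OHT and 364 FPKM in ethanol, and the 8 macrophage markers to 1488 FPKM in 4-OHT and 679 FPKM in ethanol. The 8 stromal markers summed to 602 FPKM in 4-OHT and 37.5 FPKM in ethanol, and the 5 megakaryocyte markers to 830 FPKM in 4-OHT and 222 FPKM in ethanol. The macrophage marker Lyz2, listed at 0 in 4-OHT and at 3835 FPKM in ethanol, is not in these sums. Its deposited log2 fold change is 0 despite these values, so the listed 0 in 4-OHT may not be a measured level. T cell markers were low in both conditions, and the most abundant of them, Cd3g, stood at 2.52 FPKM in 4-OHT and 0.70 FPKM in ethanol. In such bulk samples, fewer cells of a type and less RNA of a gene per cell cannot be told apart, and the part of these shifts in the values below was not tested.

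RefSeq promoter windows (build GRCm38.p6, 250 bases before to 50 after a start site) were matched for 31 of the 33 genes, in 47 windows. Hnrpll and Hnrnpul2 had none. The palindrome CACGTG, the E-box that MYC and its partner MAX bind, was searched as a plain string. It occurred in 8 of the 47 windows, or 17.02%, against 7.15% of all 32851 windows and 10.3% of the 10086 windows of genes in compared rows. The genes were Hnrnpa3, Hnrnpd, Hnrnpf, Hnrnph2, Hnrnpm, Mbnl1, Pcbp1 and Ptbp1. The 250 bases before the start site are shown for the 4 of them that have a single window and the E-box within those bases, with the E-box in capitals, on the strand of the gene.
Hnrnpa3 (chr2:75659009-75659258, plus strand, E-box first base at position -18 from the start site): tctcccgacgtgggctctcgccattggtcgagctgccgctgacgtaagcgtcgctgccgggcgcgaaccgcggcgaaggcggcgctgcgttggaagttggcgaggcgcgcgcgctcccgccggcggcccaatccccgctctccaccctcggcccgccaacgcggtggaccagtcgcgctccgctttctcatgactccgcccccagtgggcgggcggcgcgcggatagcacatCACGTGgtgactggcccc
Hnrnpd (chr5:99978939-99979188, minus strand, E-box at -32): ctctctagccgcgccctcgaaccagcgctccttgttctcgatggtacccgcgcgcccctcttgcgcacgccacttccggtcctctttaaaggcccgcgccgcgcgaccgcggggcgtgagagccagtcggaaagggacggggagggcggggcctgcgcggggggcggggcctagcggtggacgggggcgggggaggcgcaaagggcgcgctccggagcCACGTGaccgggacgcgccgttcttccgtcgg
Pcbp1 (chr6:86526190-86526439, minus strand, E-box at -217): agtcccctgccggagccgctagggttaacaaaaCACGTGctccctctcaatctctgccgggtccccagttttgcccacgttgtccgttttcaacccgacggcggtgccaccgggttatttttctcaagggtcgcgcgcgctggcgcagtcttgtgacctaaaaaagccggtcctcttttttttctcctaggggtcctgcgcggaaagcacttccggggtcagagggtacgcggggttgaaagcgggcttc
Ptbp1 (chr10:79854182-79854431, plus strand, E-box at -45): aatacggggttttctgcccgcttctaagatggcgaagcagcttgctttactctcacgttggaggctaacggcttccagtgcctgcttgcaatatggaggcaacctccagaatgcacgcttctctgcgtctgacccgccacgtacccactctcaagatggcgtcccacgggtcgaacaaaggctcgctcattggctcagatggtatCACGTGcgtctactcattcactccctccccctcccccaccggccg

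The promoters were rich in G and C, with a median of 63.7% over the 47 windows against 60.7% over the windows of compared rows. Of other motifs searched on both strands, the ETS string CCGGAAG was found in 7 windows (14.9%, against 17.6% of windows of compared rows) and the NRF1 string CGCATGCG in 2 windows (4.26%, against 3.96%). The E2F string TTTCCCGC was found in 3 windows (6.38%, against 2.06% of windows of compared rows), and the YY1 string AAGATGGC in 3 (6.38%, against 4.35%). Windows of the same gene can overlap, and a match is a run of letters and not a shown binding site. The 8 genes with an E-box had log2 ratios from -0.71 to -0.01 with a median of -0.43, and the 23 with a window and no E-box ranged from -0.85 to 0.27 with a median of -0.46. The ratios of genes with and without the string overlapped over most of their range.

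Most of the splicing regulators were lower in 4-OHT. Of the 33 genes, 29 were lower in 4-OHT (87.9%), against 55.1% of all compared rows. The median log2 ratio was -0.41, against -0.07 for all compared rows, and 27 of the 33 lay below that median. Together they summed to 3186 FPKM in 4-OHT and 4412 FPKM in ethanol, or 0.893% of the table's FPKM in 4-OHT and 1.27% in ethanol. At a threshold of 1.5-fold, 7 genes were lower (21.2%, against 12.8% of compared rows) and 1 was higher (3.03%, against 19.5%). At a log2 ratio of -0.32 or less there were 21 genes (63.6%, against 29.9%). None was 2-fold lower, against 2.58% of compared rows. Most of the genes shared a direction at a small size, and 20 lay at or under the lower quartile of all compared rows (-0.39).

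**Figure D1:**
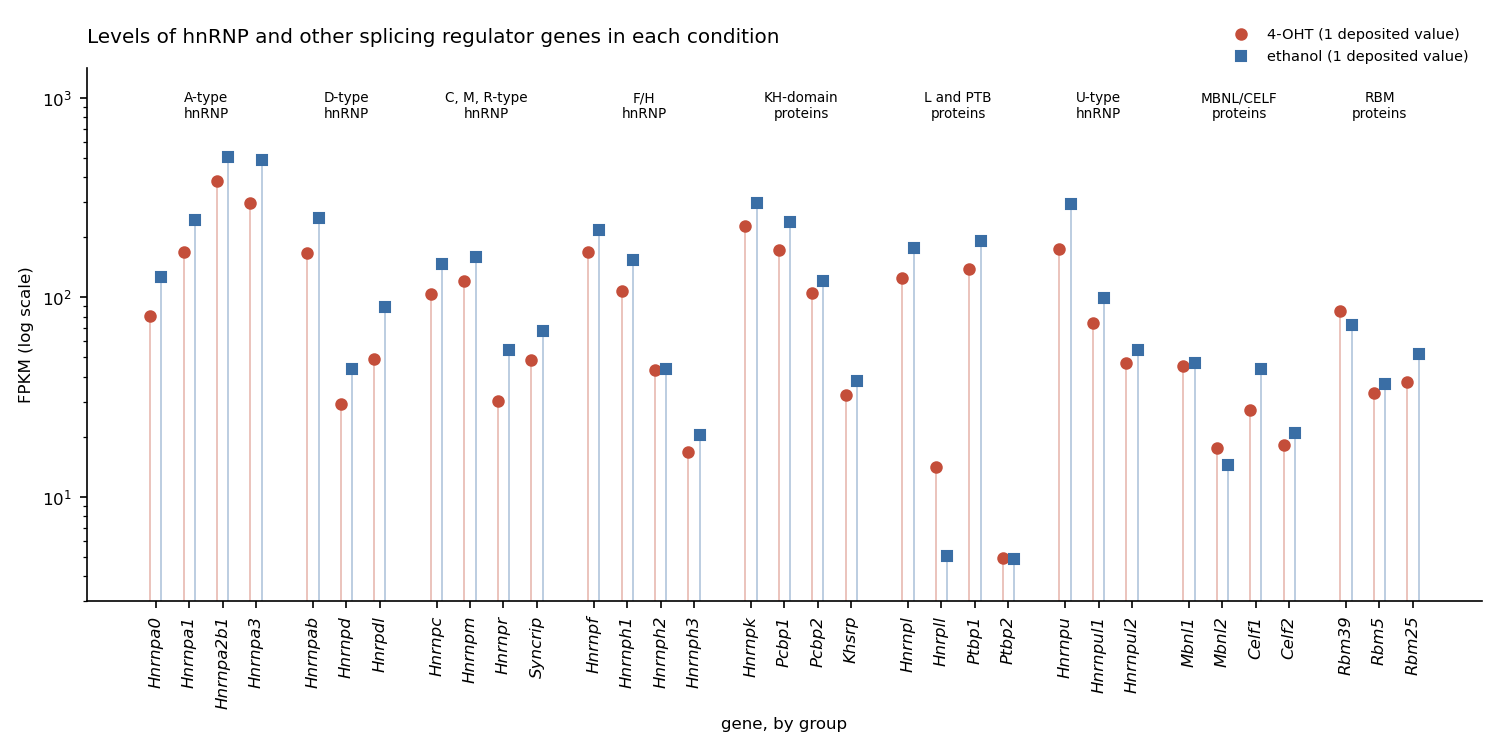
FPKM of each gene on a log scale, in 4-OHT (red circles, left of each pair) and in ethanol (blue squares, right), grouped by protein family, with 1 deposited value per condition and no error. The red circle lies below the blue square in 29 of 33 genes, and Hnrpll is the gene with the clearest reverse order (14.1 FPKM in 4-OHT, 5.05 FPKM in ethanol).

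The A-type hnRNPs, which share a pair of RNA recognition motifs and are best known as splicing repressors, held the most abundant genes and were all lower. Hnrnpa2b1 (chromosome 6, 51410434 to 51419893, mm9), also known for sorting RNA in the cytoplasm, was the most abundant of the 33 in both conditions, at 381 FPKM in 4-OHT and 502 FPKM in ethanol (1.32-fold lower). Hnrnpa3 (chromosome 2, 75497316 to 75507464) was next at 297 FPKM in 4-OHT and 486 FPKM in ethanol, 1.64-fold lower. The pair was nearly level in ethanol, where Hnrnpa3 stood at 0.969 of Hnrnpa2b1, and was set apart in 4-OHT, at 0.779. Hnrnpa1 (chromosome 15, 103070863 to 103075386), the classic antagonist of SR proteins at splice sites, stood at 168 FPKM in 4-OHT and 244 FPKM in ethanol. Hnrnpa0 (chromosome 13, 58227240 to 58229917), which binds AU-rich elements, stood at 80.0 FPKM in 4-OHT and 127 FPKM in ethanol, 1.57-fold lower. The rows of Hnrnpa1 and Hnrnpa3 are merged with those of the predicted genes Gm10052 and Gm6793, so their values may hold reads of both.

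The D-type genes, whose products bind AU-rich RNA and act on mRNA decay as well as splicing, had the lowest ratio of the set. Hnrpdl (chromosome 5, 100462598 to 100468241), the D-like hnRNP now called Hnrnpdl, stood at 49.2 FPKM in 4-OHT and 89.6 FPKM in ethanol, a log2 ratio of -0.85. Only 4.51% of compared rows had a lower ratio. Its neighbour on the chromosome, Hnrnpd (100384955 to 100407957), encodes the decay factor AUF1 and stood at 29.2 FPKM in 4-OHT and 43.4 FPKM in ethanol (1.47-fold lower). Hnrnpab (chromosome 11, 51398259 to 51420383) stood at 166 FPKM in 4-OHT and 251 FPKM in ethanol, and at 1.504-fold lower it lay just past the threshold. The 3 genes together were 1.57-fold lower by summed FPKM, the largest difference of the 9 groups described here.

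Hnrnpr and Syncrip encode the close relatives hnRNP R and hnRNP Q, which bind mRNA in nucleus and cytoplasm. Hnrnpr (chromosome 4, 135866891 to 135896593) had the next lowest ratio after Hnrpdl, at 30.2 FPKM in 4-OHT and 54.1 FPKM in ethanol (log2 ratio -0.82). Syncrip (chromosome 9, 88344576 to 88377235) was less affected, at 48.6 FPKM in 4-OHT and 67.5 FPKM in ethanol (-0.46), so Hnrnpr stood at 0.621 of Syncrip in 4-OHT and 0.802 in ethanol. Hnrnpc, whose product binds uridine tracts and in human cells keeps cryptic exons out, stood at 104 FPKM in 4-OHT and 146 FPKM in ethanol. Hnrnpm, which binds GU-rich sites, stood at 120 FPKM in 4-OHT and 159 FPKM in ethanol. These last genes lay at log2 ratios of -0.49 (Hnrnpc) and -0.40 (Hnrnpm), near the median of the set.

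The F and H proteins bind runs of guanosines near splice sites, and their genes were split. Hnrnph1 (chromosome 11, 50191221 to 50200030) stood at 107 FPKM in 4-OHT and 153 FPKM in ethanol (log2 ratio -0.51), and Hnrnpf at 168 FPKM in 4-OHT and 217 FPKM in ethanol (-0.37). Hnrnph2 (chromosome X, 131135825 to 131141593), whose protein is nearly the same as that of Hnrnph1, was near equal at 43.3 FPKM in 4-OHT and 43.7 FPKM in ethanol, and its sign turned with the scaling of the conditions. As a result Hnrnph1 exceeded Hnrnph2 by 2.47-fold in 4-OHT and by 3.49-fold in ethanol. Hnrnph3, the smallest of the family, stood at 16.7 FPKM in 4-OHT and 20.3 FPKM in ethanol.

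The KH-domain proteins of this set bind cytidine-rich RNA, or AU-rich RNA in the case of Khsrp, and all 4 genes were lower by less than 1.5-fold. Hnrnpk (chromosome 13, 58493312 to 58512510), which also acts in transcription, stood at 226 FPKM in 4-OHT and 298 FPKM in ethanol. Pcbp1 (chromosome 6, 86474491 to 86476159), an mRNA stability and translation factor, stood at 173 FPKM in 4-OHT and 239 FPKM in ethanol, 1.38-fold lower. Its relative Pcbp2 stood at 105 FPKM in 4-OHT and 120.5 FPKM in ethanol, 1.15-fold lower. Khsrp, which promotes decay of AU-rich mRNA, stood at 32.5 FPKM in 4-OHT and 37.9 FPKM in ethanol. The ratios of Pcbp2 (-0.20) and Khsrp (-0.22) were closer to that of all compared rows than to the median of the set.

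The largest difference of all 33 genes was that of Hnrpll, and it ran the other way. Hnrpll (chromosome 17, 80428827 to 80461674), now called Hnrnpll, encodes an hnRNP L relative best known for directing the splicing of the CD45 gene in activated T cells and plasma cells. It stood at 14.1 FPKM in 4-OHT and 5.05 FPKM in ethanol, 2.49-fold higher, and 5.31% of compared rows had a ratio at least as high. In the authors' deposited table its log2 fold change is 1.48, against 1.32 with the pseudocount. Hnrnpl itself (chromosome 7, 29595909 to 29607285), which binds CA repeats, stood at 125 FPKM in 4-OHT and 176 FPKM in ethanol (log2 ratio -0.49). The excess of Hnrnpl over Hnrpll was therefore 8.92-fold in 4-OHT and 34.9-fold in ethanol. Hnrpll moved in the direction of the neutrophil (median log2 ratio 3.26), macrophage (1.16), stromal (3.63), megakaryocyte (1.90) and T cell markers (0.73). It moved against the direction of the B cell markers (-0.998), and the part of these shifts in its value was not tested.

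The polypyrimidine tract binding proteins also differed within a pair, but by less. Ptbp1 (chromosome 10, 79314122 to 79337379), the widely expressed repressor of exons next to pyrimidine tracts, stood at 138 FPKM in 4-OHT and 192 FPKM in ethanol (1.39-fold lower). Ptbp2 (chromosome 3, 119421660 to 119486306), its neuronal relative, whose mRNA Ptbp1 is known to keep low by skipping an exon, was the least abundant of the 33 in both conditions. It stood at 4.94 FPKM in 4-OHT and 4.88 FPKM in ethanol, near equal, with a sign that turned with the scaling. The excess of Ptbp1 over Ptbp2 was 27.9-fold in 4-OHT and 39.3-fold in ethanol.

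Among the U-type genes, Hnrnpu (chromosome 1, 180258431 to 180267915), whose large product also binds chromatin and the nuclear matrix, stood at 174 FPKM in 4-OHT and 294 FPKM in ethanol. At 1.68-fold lower it had the third lowest ratio of the set. Hnrnpul1 stood at 74.3 FPKM in 4-OHT and 98.9 FPKM in ethanol (1.33-fold lower), and Hnrnpul2 at 46.7 FPKM in 4-OHT and 54.4 FPKM in ethanol (1.16-fold lower). Both encode Hnrnpu relatives that in human cells take part in DNA damage responses.

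Muscleblind-like (MBNL) and CELF proteins are tissue-specific regulators that often act on the same exons in opposite directions, and their genes were at lower levels here. Celf1 (chromosome 2, 90780615 to 90857210), which also drives decay of GU-rich mRNA, was the exception in size, at 27.3 FPKM in 4-OHT and 43.9 FPKM in ethanol (1.59-fold lower). Celf2 (chromosome 2, 6460744 to 7317825) stood at 18.2 FPKM in 4-OHT and 20.9 FPKM in ethanol. Mbnl1 (chromosome 3, 60305174 to 60433670) was near equal, at 45.0 FPKM in 4-OHT and 46.9 FPKM in ethanol, with a sign that turned with the scaling. Mbnl2 (chromosome 14, 120674891 to 120830920) was 1.20-fold higher, at 17.6 FPKM in 4-OHT and 14.4 FPKM in ethanol. Mbnl1 was the most abundant of these 4 genes in both conditions.

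Of the 3 RBM genes, 2 were lower and 1 was higher. Rbm39 (chromosome 2, 155972975 to 156005976), a U2AF-like splicing factor and coactivator, was 1.17-fold higher, at 85.4 FPKM in 4-OHT and 72.7 FPKM in ethanol. Rbm25, known in human cells for acting on the splicing of BCL2L1, stood at 37.7 FPKM in 4-OHT and 52.0 FPKM in ethanol (1.37-fold lower). Rbm5, known in human cells for regulating the splicing of FAS, stood at 33.2 FPKM in 4-OHT and 36.6 FPKM in ethanol. By summed FPKM the 3 genes were 1.03-fold lower, the smallest difference of the 9 groups. Of 12 other RBM genes compared, 10 were lower, with a median log2 ratio of -0.32. Of all compared rows 55.1% were lower.

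**Figure D2:**
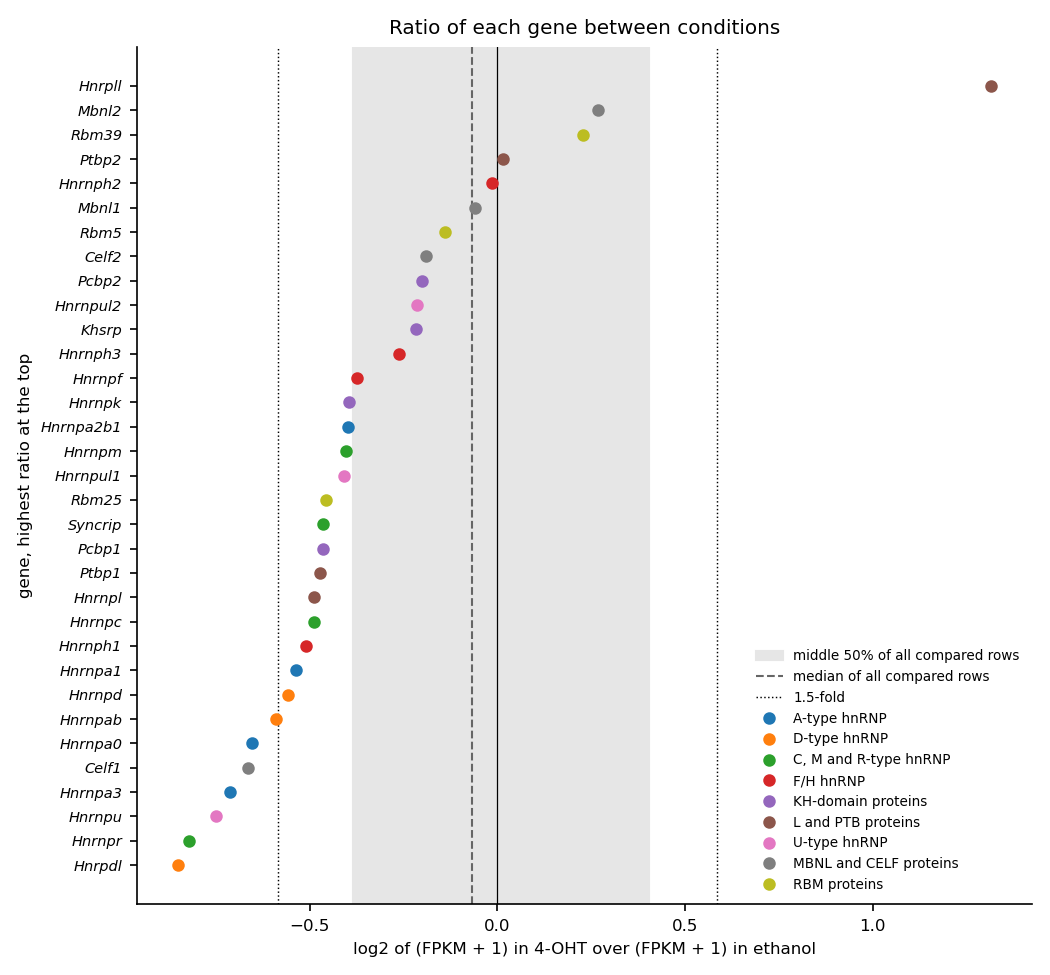
Log2 ratio (FPKM + 1, 4-OHT over ethanol) of each gene, coloured by protein family, with the middle 50% of all compared rows in grey, their median dashed and the 1.5-fold thresholds dotted. From Hnrpdl (-0.85) to Hnrnpk (-0.40) 20 genes lie left of the grey band, 12 lie inside it, and Hnrpll (1.32) alone lies to its right.

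Within pairs of relatives, chosen after the values were seen, the more abundant gene had the lower ratio in 8 of 11. The exceptions were Hnrnpa1 and Hnrnpa3, each set beside Hnrnpa2b1, and Hnrnpr beside Syncrip. Pcbp1 exceeded Pcbp2 by 1.65-fold in 4-OHT and 1.98-fold in ethanol, Celf1 exceeded Celf2 by 1.502-fold in 4-OHT and 2.103-fold in ethanol, and Mbnl1 exceeded Mbnl2 by 2.56-fold in 4-OHT and 3.25-fold in ethanol. In these 3 pairs the levels lay closer to each other in 4-OHT, which restates that the more abundant gene had the lower ratio. Pairs of other genes were not compared. Among all the genes the ratio tended to be lower where the level was higher: across the 33 genes the Spearman correlation of mean FPKM with the log2 ratio was -0.48, a description over genes that share the same libraries. Over all compared rows it was -0.14. The difference from other rows was also present among rows of high level. Of the 1340 rows that average 50 FPKM or more, 60.0% were lower, and 19 of the 20 splicing regulators at that level were lower (95.0%). There 17 of the 20 had a log2 ratio of -0.32 or less (85%, against 38.4%) and 5 were at least 1.5-fold lower (25%, against 16.2%). In the highest band, at 200 FPKM or more, the 7 genes had a median log2 ratio of -0.54, against -0.21 for all 218 rows of the band. Below 20 FPKM, the 5 genes had a median of 0.02, against -0.04 for 7293 rows.

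**Figure D3:**
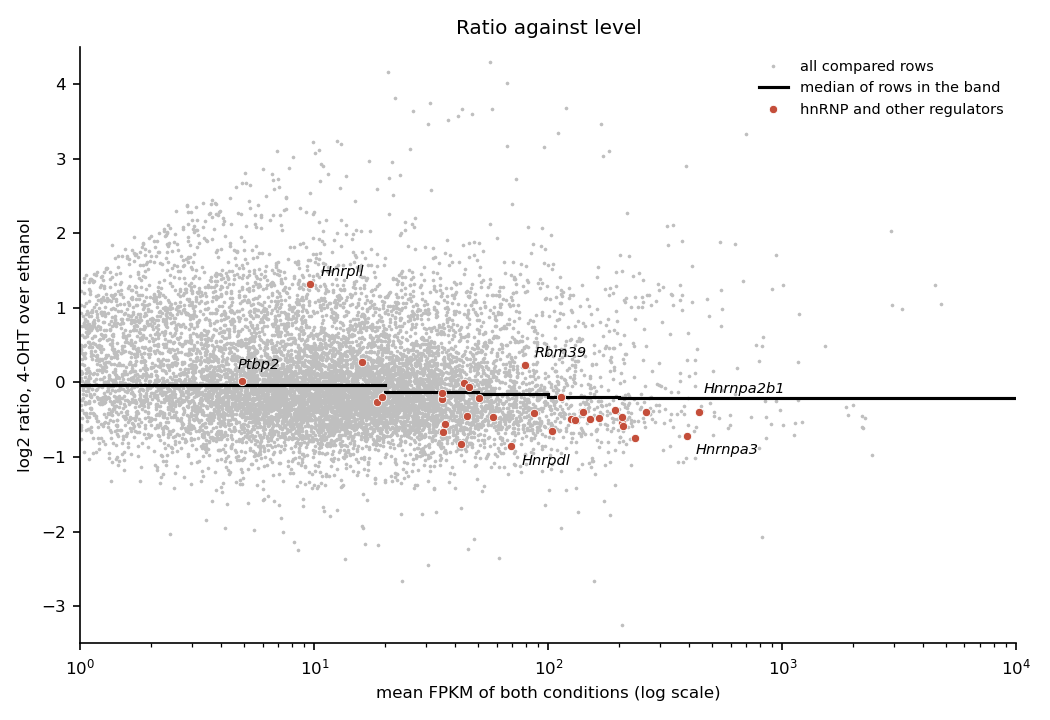
Log2 ratio of 4-OHT over ethanol against the mean FPKM of both conditions (log scale), for all compared rows (grey) and the 33 genes (red), with the median of all rows in each band of level as black lines. The red points lie below the black lines at 20 FPKM and above in most cases, and at 200 FPKM or more their median is -0.54 against -0.21.

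The order of the genes by level was almost kept (Spearman correlation of the conditions over the 33 genes 0.98). In both conditions the leading genes were Hnrnpa2b1, Hnrnpa3, Hnrnpk and Hnrnpu, and the last were Hnrpll and Ptbp2. In all, 14 genes in 4-OHT and 15 in ethanol exceeded 100 FPKM, and 5 genes in 4-OHT and 3 in ethanol were under 20 FPKM. With no replicates, whether neighbours in this order differ cannot be said. Only 3 genes changed place by 4 ranks or more: Hnrnpr was 26th in 4-OHT and 21st in ethanol, Celf1 was 28th in 4-OHT and 24th in ethanol, and Rbm5 was 24th in 4-OHT and 28th in ethanol.

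Further regulators of splicing were also mostly lower. Of 13 SR and SR-like genes, whose products mostly promote exon inclusion, 12 were compared. All 12 were lower, against 55.1% of compared rows. The median log2 ratio was -0.48, and 3 genes (25%, against 12.8% of compared rows) were at least 1.5-fold lower. The lowest were Srsf10 (40.9 FPKM in 4-OHT, 69.3 FPKM in ethanol), Tra2a (-0.67) and Srsf9 (-0.61), and the highest were Srsf7 (-0.37), Srsf6 (-0.26) and Srsf11 (-0.07). The most abundant were Srsf5 (139 FPKM in 4-OHT, 189 FPKM in ethanol) and Srsf2 (133 FPKM in 4-OHT, 180 FPKM in ethanol). Of 51 other listed regulators, some of them relatives of the 33 genes, 38 were compared. Among these 34 were lower (89.5%, against 55.1% of compared rows) and 0 were at least 1.5-fold higher (against 19.5%). The 6 that were at least 1.5-fold lower made up 15.8%, near the 12.8% of compared rows. The median of the 38 was -0.35, and 2 were at least 2-fold lower, against 2.58% of compared rows. Rbfox2 (1.66 FPKM in 4-OHT, 0.22 FPKM in ethanol) and Khdrbs3 (1.01 FPKM in 4-OHT, 0.17 FPKM in ethanol) were higher but averaged under 1 FPKM and were not compared. The others not compared averaged 0.43 FPKM or less, where adding 1 to each FPKM holds the log2 ratio near 0 (-0.09 to 0.14). Their deposited log2 fold changes, where finite, ran from -1.70 (Celf3) to 3.81 (Nova2), so whether they differed cannot be said. Of those compared, Taf15, which encodes an RNA-binding TAF protein, was the lowest at 27.2 FPKM in 4-OHT and 76.4 FPKM in ethanol. Raly, an hnRNP C relative, was next at 281 FPKM in 4-OHT and 568 FPKM in ethanol. Rbmx followed (-0.87), and the Y-box protein gene Ybx1 stood at 316 FPKM in 4-OHT and 470 FPKM in ethanol. Pcbp4 (0.12), Rbm38 (0.20) and Rbm42 (0.21) had the highest ratios of those compared.

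The proliferation genes had larger differences and were all lower: 18 of 18, against 55.1% of compared rows, with a median log2 ratio of -0.70. At least 1.5-fold lower were 12 of the 18 (66.7%, against 12.8% of compared rows). The most abundant was Pcna at 232 FPKM in 4-OHT and 313 FPKM in ethanol. The B cell markers had a median of -0.998, with Cd24a at 273 FPKM in 4-OHT and 451 FPKM in ethanol. On the other side, Ngp of neutrophils stood at 1269 FPKM in 4-OHT and 125 FPKM in ethanol, and C1qb of macrophages at 366 FPKM in 4-OHT and 162 FPKM in ethanol. Col1a1 of stromal cells stood at 127 FPKM in 4-OHT and 6.91 FPKM in ethanol, and Pf4 of megakaryocytes at 585 FPKM in 4-OHT and 156 FPKM in ethanol. The median of the hnRNPs and other regulators lay between that of all rows and those of the proliferation genes and B cell markers. The part of a change in cell makeup or in cycling cells in this difference was not tested.

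**Figure D4:**
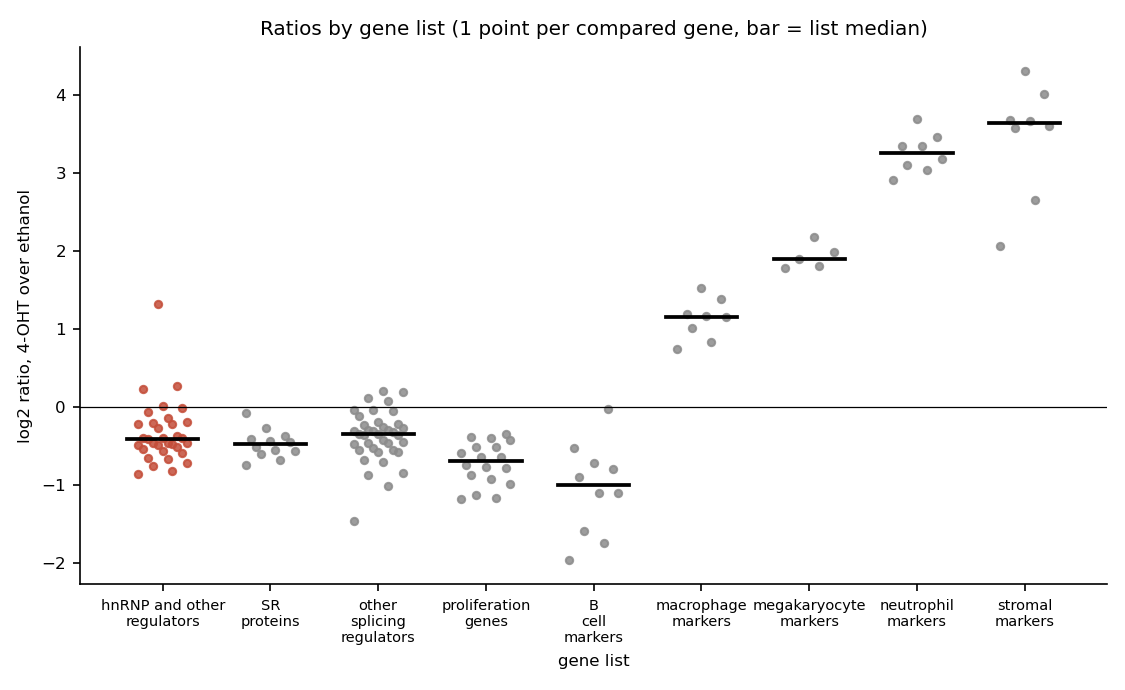
Log2 ratio of 4-OHT over ethanol for each compared gene (points) and the median of each list (bars). The 33 genes (red, median -0.41) lie beside the SR proteins (-0.48) and other splicing regulators (-0.35), above the proliferation genes (-0.70) and B cell markers (-0.998), and below the markers of macrophages, megakaryocytes, neutrophils and stromal cells (1.16 to 3.63).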

How the data were processed

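Per the file headers, the deposited table gives a gene name, a locus, 1 FPKM value per condition and a log2 fold change, all computed by the authors. Per the submitters' processing notes, CASAVA, TopHat2 2.0.9, Cufflinks 2.1.1 and build mm9 were used. Neither the way 3 libraries became 1 value nor any scaling between conditions is stated in the sources used here. The deposited log2 fold change equalled log2 of the 4-OHT over the ethanol FPKM within 0.01 in all 15756 rows above 0 in both. Depth is unknown, so no interval is given.

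Rows were matched by name, split at commas. The ratio used a pseudocount of 1 and rows averaging 1 FPKM or more, with 1.5-fold as the threshold. No test was possible with 1 value per condition. Calculations used pandas 2.3.3 and numpy 2.4.6 under Python 3.11.15, figures used matplotlib 3.10.9, and the ratio code was tested on simulated data. Locus starts were taken as counted from 0 and 1 was added, since locus lengths then equalled RefSeq lengths (GRCm38.p6) in 6341 of 18851 matched rows, against 437 otherwise. No mm9 coordinate was used with that reference. Annotated transcripts came from GENCODE M21. Named were all 33 genes, Prmt5 and Myc, from each list of splicing genes the 3 highest and 3 lowest ratios and the 2 highest mean FPKM, and from each marker list the most abundant gene. C1qb is named in place of Lyz2, which is listed at 0, and was chosen after its values were seen. Rbfox2 and Khdrbs3, which were not compared, were also named after their values were seen. S100a8 and S100a9 were not analysed here. The members, lists and threshold were chosen with earlier results of these data known.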

Additional observations from a re-analysis of the deposited data

How the results depend on the processing

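Settings tried were pseudocounts of 0.1 and 0.5, a minimum of 5 FPKM, no filter, no merged rows and the authors' deposited log2 fold changes. None of these can turn the sign of a gene, since they use the same FPKM values. Median-of-ratios scaling and quantile normalization, which can, were also tried, and most genes stayed lower under each. Across them 27 to 30 genes were lower, 5 to 9 were at least 1.5-fold lower, 1 was at least 1.5-fold higher, and the median log2 ratio ran from -0.47 to -0.33. The ends of these ranges came from scaling over compared rows (27 lower, 5 past 1.5-fold, median -0.33) and, chosen after seeing the data, scaling over all rows above 0 (30 lower, 9 past 1.5-fold, median -0.47). They moved the median of all compared rows to 0.00 and -0.12, against -0.07. Scaling over compared rows took Hnrnpa0 and Hnrnpab under 1.5-fold, and the other scaling put Hnrnpa1 and Hnrnpd past it. The signs of Hnrnph2, Mbnl1 and Ptbp2 turned under at least 1 of the scalings, and the cause was not tested. Their log2 ratios in the main comparison were small, at -0.01, -0.06 and 0.02. The count of lower genes rests on the threshold: 21 at a log2 ratio of -0.32 and 0 at 2-fold, against 7 at 1.5-fold. With a minimum of 5 FPKM, Ptbp2 was not compared. No paired analysis was possible because each condition has a single deposited value, which also kept the replicate block and leaving out each replicate from being run. Low values such as those of Ptbp2 and Hnrpll carry the least precision, which FPKM without counts does not state.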

Other observations

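The genes are annotated with many transcripts, which a value per gene adds together. In GENCODE M21 the 33 genes had a median of 11 transcripts, against 5 for 9780 protein-coding genes of the compared rows. Of the 33, 17 (51.5%) have a transcript annotated as a target of nonsense-mediated decay, against 29.9%. A transcript with a retained intron is annotated for 25 (75.8%), against 61.5%. A gene with more annotated transcripts has more chances to hold one of either class, and genes of equal transcript number were not compared. Rbm39, 1 of the 4 genes with a higher value in 4-OHT, has the most transcripts of the decay class, 8. The others of these 4 have 2 (Ptbp2), 1 (Hnrpll) and 0 (Mbnl2). Rbm5 and Hnrnpd, both lower in 4-OHT, have 4 each, and Hnrnpu, which was 1.68-fold lower, has 3. A link of these counts to direction was not tested. Genes of the hnRNP and SR families are known to limit their own expression through such transcripts, which the table does not separate.

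Part of the sequence of these genes also occurs elsewhere in the transcriptome. Of the distinct 50-base stretches of protein-coding transcripts, a median of 3.78% per gene also occurs in a transcript of another gene on either strand, and 7 genes share none (Hnrpll, Ptbp2, Hnrnpu, Celf1, Mbnl1, Hnrnpa0 and Rbm5). The share was 61.9% for Hnrnpf, 46.7% for Hnrnpa1 and 27.7% for Hnrnpa3, mainly with processed pseudogenes or predicted genes, such as Gm10052 for Hnrnpa1. It was 25.6% for Hnrnpk, mainly with the pseudogene Gm7964, and 24.2% for Ptbp1, mainly with noncoding RNA genes and a pseudogene. The share was 38.7% for Pcbp2, mainly with its neighbour Map3k12, 23.8% for Hnrnpab, with Phykpl, and 21.6% for Hnrnpm, with March2. The last of the 9 genes above 10% was Hnrnph2, at 15.9%, mainly with the pseudogene Gm8775. No pair of the 33 genes shared an identical 50-base stretch. Stretches that match with mismatches, or of another length, were not searched. The sources used here do not say how reads with several matches were treated.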
